A study of Mus musculus with 4 samples.

Results

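Axon guidance genes of the neuropilin, plexin, semaphorin and Slit–Robo families were followed through the cells of the mouse main olfactory epithelium. They were Nrp1, Nrp2, Plxna1, Plxna3, Sema3a, Sema3f, Sema7a, Robo1, Robo2 and Slit1, that is 10 of the 55511 genes counted. The 10 were taken by name, with earlier results of these data known. The samples were 4 male C57BL/6 mice aged 8 weeks, group-housed on a normal light cycle, which formed 1 group with no treated counterpart. Live nucleated cells of the dissociated nasal tissue were sorted and 1 droplet library per mouse was made with the 10x Genomics Chromium 3′ chemistry, which counts transcripts by unique molecular identifiers (UMIs). The libraries held 4746 to 6003 cell barcodes and 23157467 to 32382702 UMIs, and any pair of libraries shared 4 to 14 barcodes. All levels below are UMIs of the gene per 10000 UMIs of the same cells, summed per mouse, and the spread is the SD over the 4 mice, which were the replicates, unless n = 3 is given.

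Each olfactory sensory neuron (OSN) expresses 1 odorant receptor gene and sends 1 axon to the olfactory bulb, where the axons of all neurons with the same receptor converge. Neuropilins are receptors for secreted class 3 semaphorins and signal through the plexins with which they form complexes, whereas Robo proteins are receptors for secreted Slit ligands. In the olfactory system Nrp1 and Sema3a are known for the ordering of axons along the anterior–posterior axis of the bulb, and Nrp2, Sema3f, Robo2 and Slit1 for their ordering along the dorsal–ventral axis. Sema7a differs from the secreted semaphorins in that it is attached to the membrane.

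On the GRCm38 build, the neuropilin genes lie at chr8:128358604-128503363, plus strand (Nrp1) and at chr1:62703285-62818695, plus strand (Nrp2). The plexin genes lie at chr6:89316314-89362620, minus strand (Plxna1) and at chrX:74329066-74344689, plus strand (Plxna3). Among the semaphorins, Sema3a lies at chr5:13125414-13602565, plus strand, Sema3f at chr9:107681500-107710475, minus strand and Sema7a at chr9:57940112-57962865, plus strand. Robo1 (chr16:72308306-73046095, plus strand) and Robo2 (chr16:73891839-74411825, minus strand) are on the same chromosome, and Slit1 lies at chr19:41600257-41743665, minus strand. On the same strand, the annotation places Gm37121 within Nrp2, Mir1903 within Nrp1, and predicted genes within Sema3a and Robo2, so that reads of these cannot be told apart from the host gene by position alone. RefSeq promoter windows (GRCm38.p6) were found for 7 of the 10 members. For Nrp2, Plxna3, Sema7a and Robo2, which differed among receptor populations and whose windows begin upstream of the annotated gene, the bases before the start of transcription are shown 5′ to 3′ on the strand of the gene, with CG dinucleotides in capitals.
Nrp2 (chr1:62703067-62703284, plus strand): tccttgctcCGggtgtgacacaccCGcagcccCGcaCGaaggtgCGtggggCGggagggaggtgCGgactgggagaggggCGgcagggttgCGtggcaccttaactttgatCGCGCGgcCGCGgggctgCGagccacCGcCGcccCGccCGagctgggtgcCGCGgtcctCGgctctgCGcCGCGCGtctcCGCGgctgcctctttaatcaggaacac
Plxna3 (chrX:74328816-74329065, plus strand): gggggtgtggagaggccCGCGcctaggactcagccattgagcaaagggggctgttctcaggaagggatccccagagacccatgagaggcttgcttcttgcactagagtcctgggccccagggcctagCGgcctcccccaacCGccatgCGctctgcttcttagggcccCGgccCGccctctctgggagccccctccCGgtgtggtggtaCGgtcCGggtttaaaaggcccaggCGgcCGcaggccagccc
Sema7a (chr9:57939862-57940111, plus strand): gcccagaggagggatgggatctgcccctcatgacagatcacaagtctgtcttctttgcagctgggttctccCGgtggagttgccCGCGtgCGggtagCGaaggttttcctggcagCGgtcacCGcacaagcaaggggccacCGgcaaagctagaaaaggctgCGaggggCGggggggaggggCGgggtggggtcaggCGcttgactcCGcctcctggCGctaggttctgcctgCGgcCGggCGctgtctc
Robo2 (chr16:74411826-74412075, minus strand): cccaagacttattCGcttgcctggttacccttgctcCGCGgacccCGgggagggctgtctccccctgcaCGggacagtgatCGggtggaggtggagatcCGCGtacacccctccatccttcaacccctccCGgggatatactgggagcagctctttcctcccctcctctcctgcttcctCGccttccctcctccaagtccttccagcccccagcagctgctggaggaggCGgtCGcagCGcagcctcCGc
The stretch of Nrp2 held 28 CG dinucleotides in 218 bases, and those shown for Plxna3, Sema7a and Robo2 held 12, 17 and 14 in 250. Over 32851 windows, the 250 bases before the start held a median of 6 and an upper quartile of 16. Robo2 had 3 windows, of which the one whose start of transcription is the 5′ end of the annotated gene is shown. In their full 300 bases the other 2, which lie farther upstream, held 9 and 5 CG dinucleotides and the one shown 17, against a median of 7. In the full windows of 300 bases, searched on both strands, neither the cAMP response element TGACGTCA nor the EBF palindrome TCCCNNGGGA was found for any member, and they were in 1.79% and 0.904% of all windows. The half-site TGACG was found 1 time, in the window of Sema7a, and in 20.8% of all windows.

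The first question was at which step of neuron formation each gene was expressed. The deposited annotation orders the lineage from globose basal cells (GBC) through immediate neuronal precursors (INP) and early and late immature neurons (iOSN1 and iOSN2) to mature OSNs (mOSN), and it names horizontal basal cells (HBC1 and HBC2), sustentacular cells (Sus) and microvillar cells (Mv1 and Mv2). Omp, a marker of mature neurons, rose along these names from 1.18 in GBC to 5.78 in iOSN1, 47.4 in iOSN2 and 72.1 in mOSN. Neurod1, a marker of precursors, was highest in INP at 9.63. Some names overlapped in their markers. GBC cells held summed INP markers at 36.5 beside GBC markers at 12.7, and Mv1 cells held markers of mature neurons at 33.8 and of Bowman gland at 10.3 beside microvillar markers at 21.6, which were at 201 in Mv2 cells. Because the types were clustered on the same counts, the levels that follow are a description and no test was made. In cells that are not neurons, Omp stood at 1.13% (Mv2) to 5.88% (Mv1) of its mature level, and the part of RNA from neurons in those cells was not tested.

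Both neuropilins were highest before maturity, and the plexins and Sema7a were highest at maturity. Nrp1 was at 0.261, 0.109, 0.190 and 0.218 in the INP of mice 1 to 4 and at 1.27, 1.46, 0.981 and 1.38 in iOSN1. It then stood at 0.472 ± 0.0794 in iOSN2 and 0.359 ± 0.0281 in mOSN (SD, n = 4). In all 4 mice iOSN1 held the highest level of the lineage and the ranges of iOSN1 and iOSN2 did not overlap. Nrp2 came 1 step earlier, with 3.60, 3.11, 3.08 and 2.96 in INP against 0 to 0.373 in GBC, and then 1.76 ± 0.0587 in iOSN1, 0.954 ± 0.0937 in iOSN2 and 0.794 ± 0.0640 in mOSN. The INP values of Nrp2 lay above every value of every other type.

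The plexins, which carry the signal of bound semaphorins into the cell, ran the other way. Plxna1 was at 0.0904 in INP, 0.526 in iOSN1 and 0.757 in iOSN2, and at 1.03, 1.69, 1.44 and 1.42 in the mOSN of mice 1 to 4. Mouse 1 was the lowest of the 4 in mature neurons. Plxna3 was at 0.0562, 0.186, 0.392 and 0.702 ± 0.0474 in the same order of stages. At each of the 3 steps from INP to mOSN the mean of both plexins was higher than before, and their mature and iOSN2 ranges did not overlap.

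Of the semaphorins, Sema3a was a gene of precursors and of a microvillar group, and Sema7a one of older neurons. Sema3a was at 0.948, 0.982, 1.19 and 1.42 in INP, at 0.239 ± 0.00769 in iOSN1 and at 0.0475 ± 0.0122 in mOSN. Its highest level was in Mv2 cells, at 1.59, 2.21, 1.95 and 2.01. These cells, which held the microvillar markers Ascl3 (19.5), Cftr (7.39) and Coch (165) but hardly Trpm5 (0.00162), also held Nrp1 at 0.414 ± 0.0617, whereas Nrp2 was at 0.0178 ± 0.0126 there. Sema3f was highest in the cells named horizontal basal cells, at 0.474 ± 0.142 in HBC1 and 0.434 ± 0.0585 in HBC2, and next in Mv2 cells at 0.340 ± 0.0652, with 0.0787 ± 0.0118 in mature neurons. The ranges of HBC1, HBC2 and Mv2 overlapped. The summed basal cell markers were at 49.6 in HBC1 and 20.1 in HBC2, and HBC2 also held sustentacular markers, at 46.0 against 4.25 in HBC1 and 91.3 in Sus cells. Fibroblast markers were at 7.79 in HBC2 and 1.46 in HBC1, and Bowman gland markers at 5.71 in HBC2 and 8.81 in HBC1. Sema7a stayed at 0.183 ± 0.0166 in iOSN1 and reached 0.898, 0.954, 0.876 and 1.04 in iOSN2 and 1.19, 1.48, 1.45 and 1.76 in mOSN. In each mouse it was thus several fold higher in iOSN2 than in iOSN1.

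Robo2 was expressed along the neuronal lineage from INP on, at 1.55 ± 0.464 in INP, 1.29 ± 0.203 in iOSN1, 1.05 ± 0.0889 in iOSN2 and 1.22 ± 0.125 in mOSN. The ranges of these 4 stages overlapped. In HBC1, HBC2, Sus, Mv1 and Mv2 cells Robo2 was at 0.0243 to 0.181. Robo1 had another pattern, with 0.931 ± 0.119 in HBC1, 0.673 ± 0.168 in GBC and 0.598 ± 0.0925 in HBC2 against 0.158 ± 0.111 in INP and 0.307 ± 0.0271 in mOSN. The ligand gene Slit1 was low throughout, at 0.114 ± 0.0176 in iOSN2 and 0.117 ± 0.0126 in mOSN, which did not differ beyond their spread. No UMI of Slit1 was counted in Mv1 cells, which allows a level of up to 0.0575. Among the cells that the annotation set aside as immune cells, Nrp1 stood at 0.469 ± 0.0516 and Robo2 at 0.122 ± 0.0239.

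**Figure D1:**
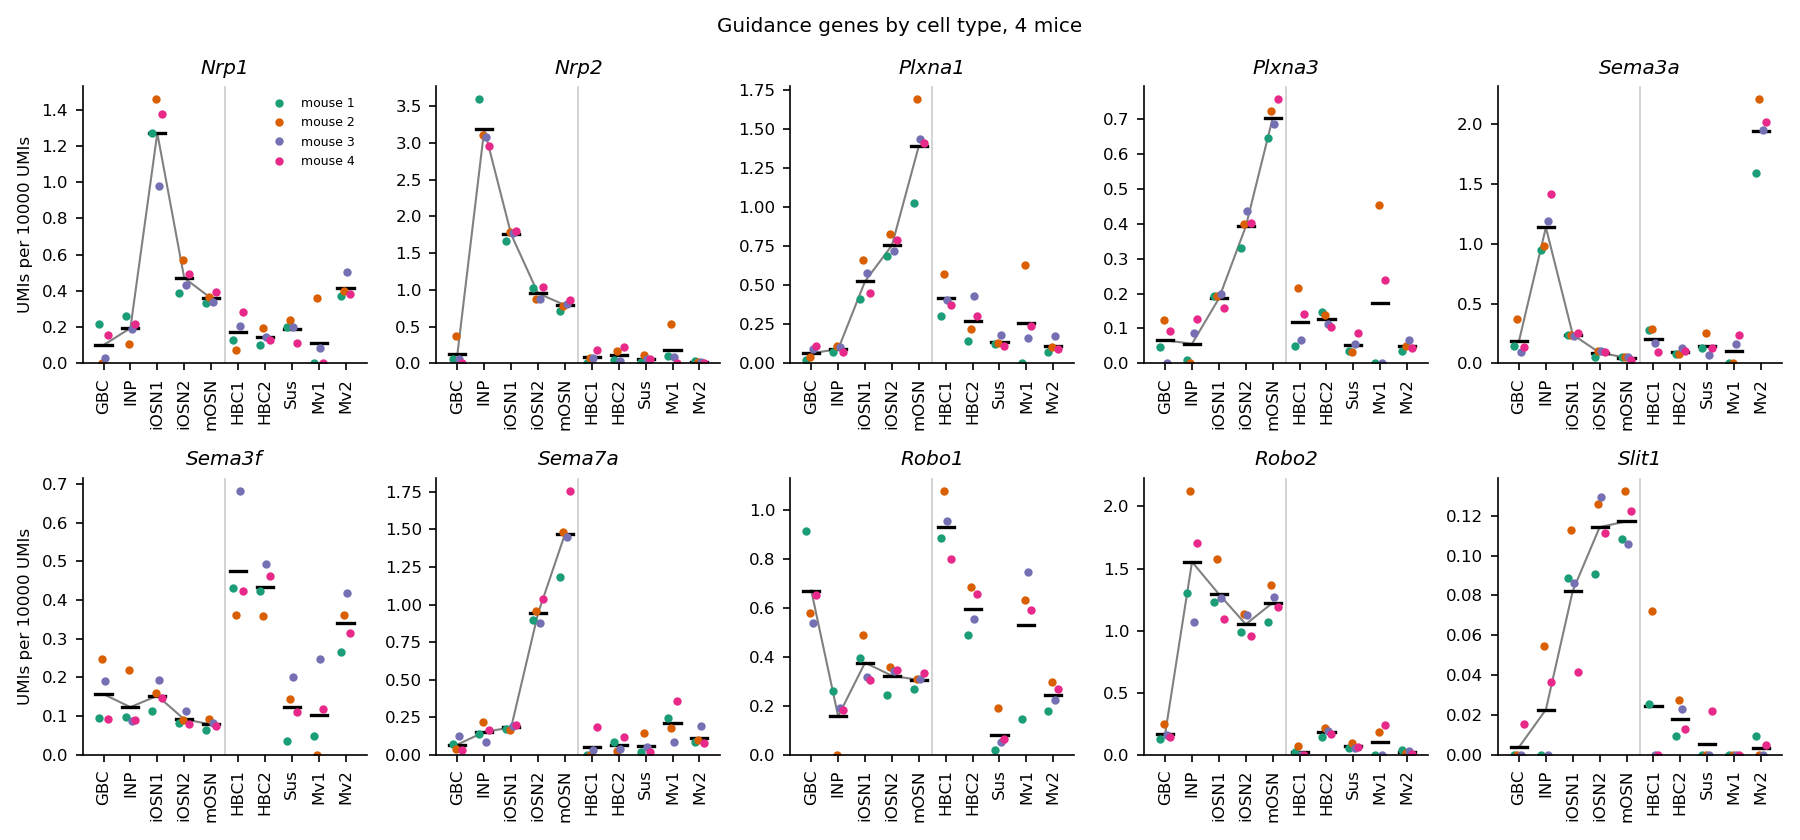
Levels of the 10 guidance genes (UMIs per 10000 UMIs, linear axis from 0, 1 panel per gene) in 10 cell types, with 1 point per mouse, a bar at the mean of 4 mice and a grey line through the means of the lineage. The 5 types to the left of the line are the neuronal lineage in order, where Nrp2 peaks at 3.19 in INP, Nrp1 at 1.27 in iOSN1, and Plxna1, Plxna3 and Sema7a in mOSN.

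Single cells were then examined for UMIs of both neuropilins. Every cell was thinned to 3000 UMIs so that depth did not set the shares, which left out 1572 of 10519 mature neurons, 44 of 1006 iOSN2 and 35 of 866 iOSN1 cells. At that depth a UMI of Nrp1 was found in 22.5% ± 2.81 of iOSN1, 12.7% ± 1.70 of iOSN2 and 8.51% ± 1.07 of mature neurons, and one of Nrp2 in 31.2% ± 3.06, 21.4% ± 1.58 and 17.6% ± 1.99 (SD, n = 4). Without thinning, the shares in mature neurons were 13.3% for Nrp1 and 25.7% for Nrp2, at a median of 4861 UMIs per cell. Free RNA gives UMIs in cells that do not express a gene, and cells that are not neurons were set beside these shares. After the same thinning, Nrp2 was found in 0.660% ± 0.499 of Mv2, 1.55% ± 2.27 of HBC2, 1.56% ± 1.17 of Sus, 2.01% ± 2.78 of HBC1 and 5.54% ± 5.72 of Mv1 cells, the last on 124 cells in all, with median depths of 3353 to 7186 UMIs. Nrp1 was found in 1.67% ± 3.33 of Mv1, 2.19% ± 1.59 of HBC2, 5.23% ± 1.97 of Sus, 5.30% ± 5.07 of HBC1 and 11.6% ± 2.77 of Mv2 cells. The mean share of Nrp1 in Mv2 cells was thus above that in mature neurons, and how much of the Nrp1 in mature neurons is free RNA was not tested. Both genes were found together in 1.64% ± 0.364 of mature neurons, against 1.51% ± 0.343 for the product of the single shares of each mouse. The share was higher than the product in 4 of 4 mice, by 0.135 ± 0.114 percentage points (exact two-sided permutation p = 0.125, the smallest that 4 mice allow). In iOSN2 cells it was 3.54% ± 1.17 against 2.73% ± 0.479, higher in 2 of 4 mice, and in iOSN1 cells 6.87% ± 0.347 against 7.01% ± 0.918, higher in 2 of 4.

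Within mature neurons, the deposited clusters, which were made without receptor genes, carry a side (dorsal, D., or ventral, V.) and a subset gene (Calb2, Cd36, Cd55 or Dlg2). Nrp1 was at or near 0 in the Cd36+ and Cd55+ clusters of both sides. It was at 0.423, 0.520, 0.488 and 0.480 in the plain Ventral cluster of mice 1 to 4 and at 0.381, 0.311, 0.344 and 0.450 in the plain Dorsal cluster. In Cd36+ V. neurons 4 UMIs were counted, in Cd55+ V. 4 and in Cd36+ D. 2, and none in Cd55+ D., which allows a level of up to 0.0416. The highest value of any mouse in these 4 clusters, 0.0468, lay below the lowest of the other 6. Plxna1 was arranged the opposite way, at 3.16 ± 0.651 in Cd55+ D., 2.90 ± 0.484 in Cd55+ V., 2.61 ± 0.823 in Cd36+ D. and 2.52 ± 0.593 in Cd36+ V., against 0.813 ± 0.0779 in Dlg2+ D. and 1.19 ± 0.188 in Ventral neurons.

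Nrp2 and Robo2 followed the side. Nrp2 was at 0.572 to 1.37 in the 5 ventral clusters and at 0 to 0.383 in the 5 dorsal ones. No UMI of it was counted in the 197 neurons of the Cd36+ D. cluster, which allows up to 0.0295. Robo2 was highest in that cluster, at 3.32, 3.70, 3.77 and 3.99 in mice 1 to 4, and lowest in Dlg2+ V. and Ventral neurons, at 0.730 ± 0.149 and 0.759 ± 0.0721. On each side the mean of Robo2 was higher in the Cd36+ and Cd55+ clusters than in the plain and the Dlg2+ cluster. Sema7a was highest in Ventral, Dlg2+ V. and Dlg2+ D. neurons, at 1.88 ± 0.229, 1.75 ± 0.280 and 1.67 ± 0.336, which did not differ beyond their spread, and lowest in Cd55+ V. at 0.423 ± 0.0530. Plxna3 ranged from 0.230 ± 0.0618 in Cd36+ V. to 0.861 ± 0.0338 in Ventral neurons. Sema3a, rare in mature neurons, was highest in Cd36+ D. at 0.194 ± 0.141 and lowest in Calb2+ V. at 0.00965 ± 0.00667, where 3 UMIs were counted. Robo1, Sema3f and Slit1 varied between 0.189 and 0.366, 0.0448 and 0.268, and 0.0540 and 0.161, respectively.

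**Figure D2:**
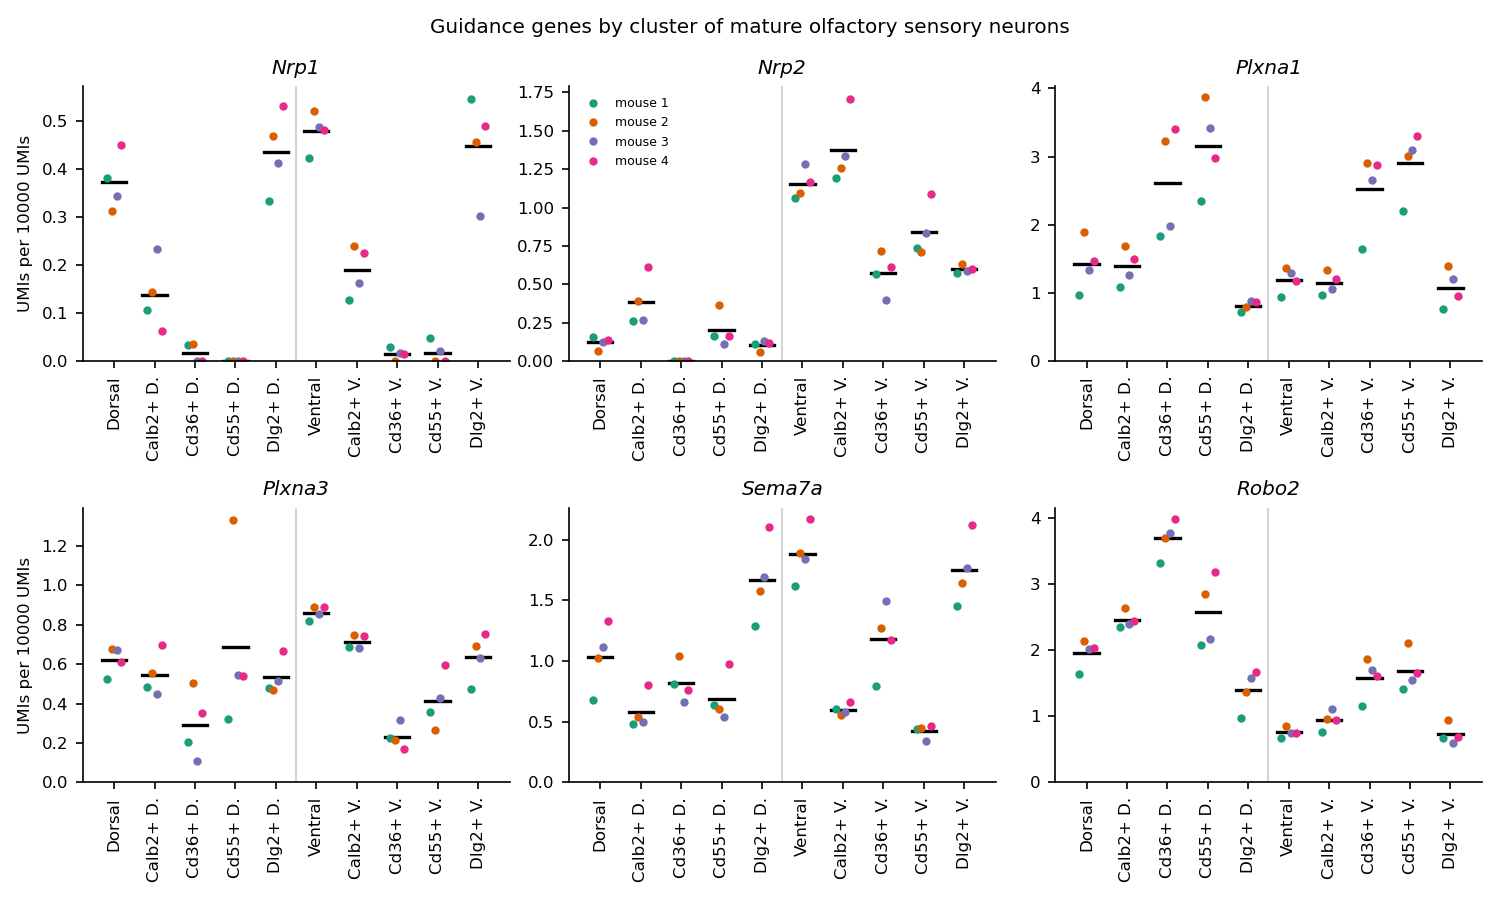
Levels of 6 guidance genes (UMIs per 10000 UMIs, linear axis from 0) in the 10 clusters of mature neurons, dorsal clusters left and ventral clusters right of the line, with 1 point per mouse and a bar at the mean. Nrp1 lies at or near 0 in the Cd36+ and Cd55+ clusters, where Plxna1 is at 2.52 to 3.16.

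To test the side without those clusters, receptor populations of 3 or more neurons were called dorsal or ventral by whether their UMI sum of Nqo1, a dorsal marker, or of Nfix, a ventral one, was the larger, and both genes were left out of the test. This gave 317 dorsal populations with 3215 neurons and 469 ventral ones with 6279 neurons, and 12 tied populations with 45 neurons were left out. In the deposited clusters, 2639 of the dorsal neurons lay in dorsal and 576 in ventral clusters, and 76 and 6203 of the ventral ones. UMI sums per mouse were compared by edgeR's quasi-likelihood test with the mouse as a block and Benjamini-Hochberg adjustment over 11979 genes. Nrp2 was at 0.168, 0.158, 0.139 and 0.213 in the dorsal neurons of mice 1 to 4 and at 1.01, 1.03, 1.15 and 1.13 in the ventral ones. All ventral values lay above all dorsal ones, and Nrp2 was 6.28-fold lower dorsally (log2 difference −2.65 ± 0.08 (SE), adjusted p = 2.09e-250). Robo2 was at 1.82, 2.41, 2.17 and 2.28 dorsally and 0.667, 0.927, 0.788 and 0.785 ventrally, again without overlap but in the other direction, and 2.80-fold higher dorsally (1.48 ± 0.04, adjusted p = 3.01e-237).

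Of the 10 members, 9 passed the test, 4 of them higher dorsally and 5 higher ventrally, where 29.0% of all genes tested passed (13.8% higher dorsally and 15.1% higher ventrally). Sema3f was at 0.109 ± 0.0123 dorsally and 0.0655 ± 0.0185 ventrally (log2 difference 0.81 ± 0.16, edgeR adjusted p = 3.56e-06), on the side where its receptor gene Nrp2 was low. Slit1 was at 0.0817 ± 0.0121 dorsally and 0.133 ± 0.0171 ventrally (−0.65 ± 0.14, adjusted p = 5.97e-05), where Robo2 was low. Sema3a was at 0.0811, 0.0968, 0.107 and 0.0401 in dorsal and 0.0356, 0.0308, 0.0302 and 0.0196 in ventral neurons (1.47 ± 0.20, adjusted p = 6.41e-12). These 3 ligand genes rested on few molecules, with 95 to 433 UMIs per side.

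Sema7a was lower dorsally in each mouse, at 0.786, 1.04, 1.17 and 1.42 against 1.42, 1.64, 1.58 and 1.90 (−0.56 ± 0.05, edgeR adjusted p = 4.35e-32). Plxna1 was higher dorsally (0.31 ± 0.04, adjusted p = 3.24e-11) and Plxna3 lower (−0.24 ± 0.06, adjusted p = 5.41e-04). Nrp1 was at 0.310 ± 0.0238 dorsally and 0.380 ± 0.0293 ventrally (−0.26 ± 0.08, adjusted p = 0.00765). Robo1 did not pass (−0.14 ± 0.09, adjusted p = 0.253). Without the mouse as a block the differences of Nrp1, Plxna1 and Plxna3 missed the threshold (adjusted p = 0.0678, 0.147 and 0.0895), and that of Nrp1 did so without mouse 2 (adjusted p = 0.123) and in neurons with exactly 1 receptor detected (adjusted p = 0.292). DESeq2 did not call Nrp1 and Plxna3 (adjusted p = 0.227 and 0.110).

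Among dorsal populations, receptors of class I, whose genes lie in 1 cluster on chromosome 7, were compared with those of class II. Nrp1 was low in class I neurons, at 0.131, 0.0977, 0.0875 and 0.0863 in mice 1 to 4 against 0.401, 0.380, 0.447 and 0.438 in class II, 3.82-fold lower (log2 difference −1.93 ± 0.18, edgeR adjusted p = 6.80e-21). No value of one class reached into the range of the other. The test called 4 of 10 members, 1 higher and 3 lower in class I, where 7.36% of 9829 genes were called (4.28% higher and 3.07% lower). Robo2 was higher in class I (0.28 ± 0.06, adjusted p = 5.35e-05), and Nrp2 (−0.63 ± 0.21, adjusted p = 0.0454) and Plxna3 (−0.33 ± 0.11, adjusted p = 0.0335) were lower. Without the block, and with DESeq2, Nrp1 was the 1 member called. Nrp2 missed the threshold without mouse 1, 2 or 4 (adjusted p = 0.240, 0.115 and 0.198), and Plxna3 without mouse 3 or 4 (adjusted p = 0.213 and 0.296). The zone markers moved with the class as well, Nfix by −3.26 ± 0.17 and Nqo1 by 0.45 ± 0.03 (log2, SE), and their part in the Nrp2 and Robo2 differences was not tested. Plxna1, Sema3a, Sema3f, Sema7a, Robo1 and Slit1 did not pass, with log2 differences from −0.18 to 0.74.

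The levels were then followed over single receptor populations. There were 134 populations with 20 or more neurons, 4143 neurons in all, of which 38 populations were dorsal and 96 ventral. The limit of 20 left 14 populations of 19 neurons just outside and kept 11 of 20. The level of a population is the mean over the mice with 3 or more of its neurons, which were 4 mice in 98 populations, 3 in 35 and 2 in 1. For the test, the 98 populations with 3 or more neurons in each mouse were used, with 1 UMI sum per mouse and population (392 sums of 3 to 28 neurons, median 36068 UMIs). Of the 7 members counted often enough, 6 differed among populations by edgeR's test over all population terms, where 24.9% of 7956 genes did. F statistics were 12.8 for Robo2, 11.0 for Sema7a, 10.4 for Nrp2, 8.21 for Nrp1, 7.10 for Plxna1 and 3.17 for Plxna3, against a median of 1.13 over all genes tested. The largest adjusted p of these was 1.06e-17. Robo1 did not pass (F = 1.08, adjusted p = 0.492), and Sema3a, Sema3f and Slit1 were below the minimum of 0.5 UMIs per sum.

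The rank of a population was carried from mouse to mouse to a different degree. Over the 6 pairs of mice, with 105 to 126 populations each, Spearman's rho of the level of the same gene averaged 0.76 for Robo2, 0.68 for Nrp1, 0.64 for Nrp2, 0.60 for Sema7a, 0.47 for Plxna1 and 0.26 for Plxna3. It averaged 0.00 for Robo1, 0.02 for Sema3a, 0.06 for Sema3f and 0.07 for Slit1, for which single populations thus gave no repeatable order.

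Nrp1 was not detected in many populations and was high in few. No UMI of it was counted in 59 of the 134 populations, the upper quartile was 0.448 and the highest mean was 2.78, in Olfr309 neurons, which were at 2.59, 2.92, 2.63 and 2.96 in mice 1 to 4. The next were Olfr740 at 2.24 ± 0.903 and Olfr1347 at 1.85 ± 0.931 (n = 3). Among those without a UMI were Olfr868, Olfr1112 and Olfr1254, in which the count of 0 allows up to 0.262, 0.314 and 0.274. Of the 59, which were tied at 0, 21 were dorsal and 38 ventral, out of 38 and 96. Nrp2 ranged up to 3.87, in Olfr1192-ps1 neurons, at 4.81, 4.05, 2.62 and 4.00 in the 4 mice, followed by Olfr1228 at 3.73 ± 1.14 and Olfr281 at 3.38 ± 0.631. These 3 did not differ beyond their spread. It was without a UMI in 21 populations, 19 of them dorsal, among them Olfr609, Olfr810 and Olfr1025-ps1, and its median was 0.0142 over dorsal and 0.985 over ventral populations.

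Plxna1 was found in every population, from 0.0588 to 4.31. Olfr73 led with 1.51, 3.75 and 7.66 in the 3 mice that had enough neurons, a wide spread, whereas Olfr1440 was next with 3.77, 4.42, 4.05 and 4.66 in mice 1 to 4, and Olfr827 stood at 3.78 ± 1.09. At the other end, Olfr1507 had 1 UMI in 42 neurons, Olfr536 was at 0.0889 ± 0.115 and Olfr1195 at 0.0950 ± 0.111. Olfr536, so low in Plxna1, was second in Plxna3 at 1.48, 2.92, 2.42 and 1.81, between Olfr309 at 2.39 ± 1.11 and Olfr60 at 2.13 ± 0.924. Olfr827 stood among the lowest in Plxna3 at 0.0613 ± 0.123, above Olfr553 and Olfr788, which had no UMI. Sema7a was highest in Olfr167 at 6.85, 7.46, 4.98 and 3.92, Olfr524 at 5.76 ± 2.30 and Olfr15 at 5.70 ± 1.57, and lowest in Olfr826 at 0.138 ± 0.276, Olfr1437 at 0.149 ± 0.258 (n = 3) and Olfr827 at 0.171 ± 0.197. Robo2 was highest in the dorsal populations Olfr810 at 2.08, 5.02, 4.46 and 6.62, Olfr73 at 4.30 ± 2.51 (n = 3) and Olfr1176 at 3.87 ± 0.742. No UMI of Robo2 was counted in 6 populations, all ventral, among them Olfr741, Olfr286 and Olfr124. Robo1, whose order was not repeatable, ranged from 0 to 0.755, with Olfr1423, Olfr1415 and Olfr365 at the upper end and Olfr1025-ps1, Olfr1254 and Olfr740 without a UMI.

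Of the receptors often used in studies of axon targeting, 5 had 20 or more neurons. Olfr1507 neurons were at 0.400 ± 0.129 for Nrp1 and 1.81 ± 0.598 for Nrp2, with no UMI of Robo2 in 42 neurons, which allows up to 0.123. Olfr2 neurons held 0.766 ± 0.387 of Nrp1, 1.08 ± 0.489 of Nrp2 and 2.97 ± 1.22 of Sema7a, and Olfr15 neurons 1.47 ± 0.609, 1.16 ± 0.288 and 5.70 ± 1.57. In both, Plxna1 and Robo2 were at 0.327 to 1.31. Olfr17 neurons were low in Nrp1, Nrp2 and Sema7a, with 1, 2 and 4 UMIs in 27 neurons. The dorsal Olfr73 neurons were without a UMI of Nrp2 and had 0.973 ± 0.673 (n = 3) of Nrp1. Olfr160, Olfr16, Olfr545 and Olfr78 had fewer than 20 neurons.

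The levels of the 2 neuropilins were nearly unrelated over populations. Spearman's rho between Nrp1 and Nrp2 was 0.10 and Pearson's r 0.14 over 134 populations, which share 4 libraries, so that the values are a description. Within single mice rho was 0.02 to 0.20, and with Nrp1 from 1 mouse and Nrp2 from another it averaged 0.12 over 12 combinations. With populations of 10 or more neurons rho was 0.0126 (353 populations), with 30 or more 0.23 (52), and after thinning to 3000 UMIs 0.25 (94). In neurons with exactly 1 receptor detected it was 0.03 (66 populations). Leaving out 1 mouse at a time gave 0.03 to 0.11 over the 134 populations. On the 2 sides the sign differed, with rho = −0.39 over 38 dorsal and 0.15 over 96 ventral populations. In counts, 5 dorsal populations had a UMI of both genes, 12 of Nrp1 alone, 14 of Nrp2 alone and 7 of neither. Of the ventral populations, 56 had both, 2 Nrp1 alone, 38 Nrp2 alone and 0 neither. At a level of 0.5 or more, both genes were found in 22 ventral and 0 dorsal populations. Of the ventral populations, 3 reached that level for Nrp1 alone, 50 for Nrp2 alone and 21 for neither, and of the dorsal ones 7, 7 and 24. With so few dorsal populations at that level for either gene, few with both would be found even if the 2 were unrelated. Whether 0 lies below that was not tested.

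**Figure D3:**
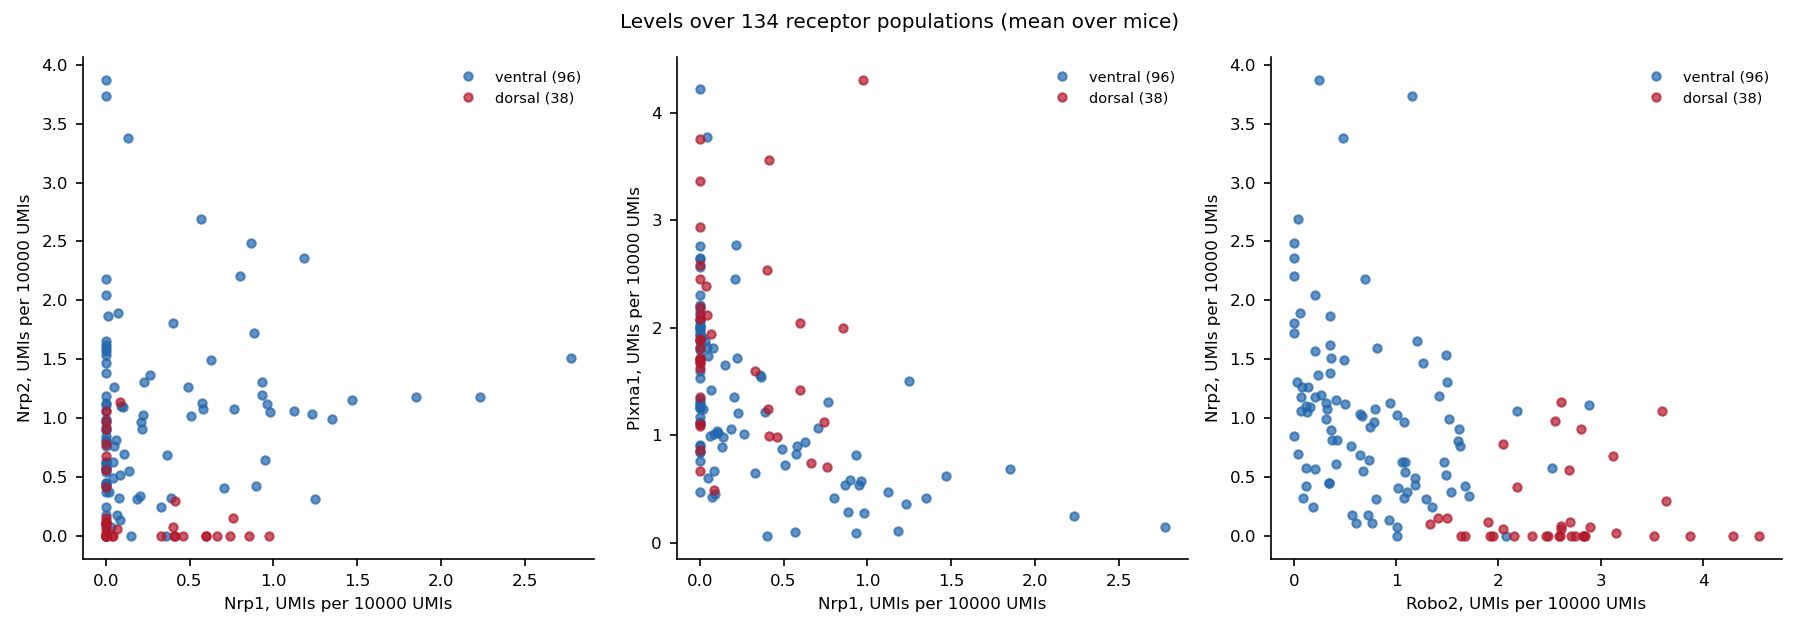
Each point is 1 of 134 receptor populations with 20 or more neurons, at the mean over mice (UMIs per 10000 UMIs on both axes), dorsal in red and ventral in blue. Nrp1 and Nrp2 show no common trend (rho = 0.10), Nrp1 and Plxna1 fall against each other (rho = −0.54), and most dorsal populations lie at high Robo2 and low Nrp2.

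Other members were related more closely. Nrp1 ran against Plxna1, with rho = −0.54 over all, −0.65 over ventral and −0.15 over dorsal populations, and with Plxna3 (0.45) and Sema7a (0.50). The 2 plexins ran against each other (rho = −0.54). Across different mice, so that both genes never came from the same cells, rho averaged −0.40 for Nrp1 and Plxna1 and 0.39 for Nrp1 and Sema7a. Nrp2 ran against Robo2 (rho = −0.62 over all populations), with −0.05 within dorsal and −0.39 within ventral populations.

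The genes with the most similar order over populations were named among 3502 genes with a mean level of 0.5 or more. For Nrp1 they were Adam28 (rho = 0.76), Cadps2 (0.75) and Mslnl (0.73), and the most opposed were Olig1 (−0.72), Cd9 (−0.66) and Usp21 (−0.61). Plxna1 had Olig1 (0.68), Myo6 and Tmsb4x at the top and Adam28 (−0.69), Mslnl and Bcar3 at the bottom. Nrp2 was closest to Id4 (0.78), Ifi27 (0.78) and Nfib (0.74), the last a ventral marker, and farthest from Cartpt (−0.72), Serinc2 and Selenom. Robo2 was closest to Cartpt (0.85), Tmsb4x and Rab3b and farthest from Pdlim1 (−0.89), Nsg1 and Cidea. Sema7a was closest to Lrrc3b (0.79), Erbin and Epha5 (0.76), the last a receptor of ephrins, and farthest from Actg1, Efna3 (−0.72), an ephrin, and Calm2. Of the other genes compared from the list called activity-linked axon-sorting genes, Kirrel2 (0.71), S100a5 (0.65) and Pcdh10 (0.64) ran with Sema7a. Efna5 ran against Sema7a (−0.62), and Cntn4 (0.01) and Pcdh17 (−0.09) lay near 0. Plxna3 was closest to Adcy3 (0.57), Pde4a and Cnga2 (0.57), and farthest from Olig1, Plxna1 and Spint2. For Robo1 no rho exceeded 0.35 (Pnisr, then Phf3 and Map7) or fell below −0.36 (Mrpl12, then Triqk and Unc5b).

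It was next asked whether the level of a mature population was already present in immature cells. The iOSN2 cells were close to maturity, with Omp at 65.7% of its mature level and summed immature markers at 28.2 against 98.0 in iOSN1 cells, in which Omp was at 7.99%. Each immature cell was given the receptor with the most UMIs, if it had 3 or more and at least 2 times those of the next, which named a receptor in 943 of 1006 iOSN2 cells, 499 of them of receptors with 10 or more mature neurons. The receptors were split into tertiles by their Nrp1 level in mature neurons, where the lowest tertile was 167 receptors without a UMI and the highest 118 receptors at 0.350 or more. The lowest was the larger because its receptors were tied at 0. A count of 0 in the 20 neurons of Olfr1112 allows up to 0.314, and populations of 10 neurons were also split. Some of the 167 receptors may thus not lie below 0.350. The iOSN2 cells of the highest (173 cells) and lowest tertile (225 cells) were then compared, so that other cells of the same animals were tested than those that had set the tertiles. Nrp1 was at 0.737, 1.13, 1.54 and 0.970 in iOSN2 cells of the highest tertile in mice 1 to 4 and at 0.0240, 0.0664, 0.0901 and 0.194 in those of the lowest. The values did not overlap, and Nrp1 was 12.6-fold higher (log2 difference 3.66 ± 0.31, edgeR adjusted p = 1.36e-19).

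Other members differed between these tertiles as well. Of the 7 tested, 5 were called, 3 higher and 2 lower in the highest tertile, where 8.53% of 5613 genes were (4.99% higher and 3.55% lower). These 5 include Nrp1, whose mature level had set the tertiles. Plxna1 was at 0.452, 0.495, 0.524 and 0.359 in the highest tertile against 1.06, 1.06, 0.811 and 1.29 in the lowest (−1.15 ± 0.21, adjusted p = 1.76e-05). Plxna3 was higher with Nrp1 (1.38 ± 0.26, adjusted p = 3.13e-05), as was Sema7a, at 0.951, 1.16, 1.45 and 1.65 against 0.433, 0.531, 0.450 and 0.614 (1.37 ± 0.19, adjusted p = 8.21e-09). In all 3 genes the 4 high values lay on 1 side of the 4 low ones. Robo2 was lower (−0.62 ± 0.17, adjusted p = 0.00831). Nrp2 (0.49 ± 0.19, adjusted p = 0.0860) and Robo1 (−0.51 ± 0.32, adjusted p = 0.396) did not pass. With DESeq2, Plxna1, Plxna3 and Robo2 missed the threshold (adjusted p = 0.0507, 0.0591 and 0.504). Without mouse 4 Robo2 was not called (adjusted p = 0.0848), and without mouse 3 Nrp2 was (adjusted p = 0.0102). The dorsal marker Nqo1 was lower in the highest tertile (−0.70 ± 0.15). The part of the side in these differences, and in that of Nrp1, was not tested.

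The split was already seen in iOSN1 cells, in which Omp was at 5.78. Nrp1 was at 2.53, 2.26, 2.46 and 2.75 in the highest tertile (130 cells) and 0.307, 0.345, 0.0540 and 0.487 in the lowest (122 cells), without overlap (3.03 ± 0.24, edgeR adjusted p = 1.79e-12). Plxna1 was lower with high Nrp1 (−1.52 ± 0.31, adjusted p = 0.00173). These were 2 of 4 members tested, where 2.34% of 4269 genes were called (1.19% higher and 1.15% lower). Nrp1, whose mature level had set the tertiles, is among the 2. Sema3a was at 0.0272, 0.111, 0 and 0.230 in the highest and 0.273, 0.384, 0.378 and 0.389 in the lowest tertile of iOSN1 cells. It was lower in the highest tertile in each mouse, on 9 against 33 UMIs. The filter on low counts had left it out, and in a fit without that filter, added after the values were seen, its log2 difference was −1.94 ± 0.52 (edgeR adjusted p = 0.186), which did not pass. By the Nrp2 tertiles it was at 0.0982, 0.259, 0.0684 and 0.217 in the highest and 0.252, 0.562, 0.395 and 0.524 in the lowest, and this difference did not pass either (−1.36 ± 0.39, edgeR adjusted p = 0.173).

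Tertiles by mature Nrp2 were compared in the same way. Nrp2 was at 2.18, 1.39, 1.34 and 1.50 in iOSN2 cells of the highest tertile (224 cells) and 0.106, 0.119, 0.0686 and 0.145 in those of the lowest (116 cells), 15.4-fold higher (3.95 ± 0.31, edgeR adjusted p = 3.86e-19). All high values lay above all low ones. Robo2 was at 0.649, 0.818, 0.847 and 0.667 against 1.49, 1.73, 1.85 and 2.32 (−1.27 ± 0.18, adjusted p = 3.71e-08), and Sema7a (1.15 ± 0.23, adjusted p = 2.17e-04) and Plxna3 (1.23 ± 0.31, adjusted p = 0.00647) were higher. These were 4 of 7 members, 3 higher and 1 lower, where 4.35% of 5144 genes were called (2.47% higher and 1.89% lower). Nrp2, whose mature level had set the tertiles, is 1 of the 3 higher. Nrp1 did not pass in iOSN2 (0.80 ± 0.29, adjusted p = 0.111) and passed in iOSN1 (1.75 ± 0.24, adjusted p = 1.12e-09). In iOSN1, 3 of 4 members were called, Nrp2 among them, 2 higher and 1 lower. Of 4292 genes, 3.49% were called there (1.61% higher and 1.89% lower). Whether the 2 stages differed was not tested. With DESeq2 in iOSN2, Sema7a and Plxna3 missed the threshold (adjusted p = 0.177 and 0.667), and without mouse 1 Plxna3 did (adjusted p = 0.254). Without mouse 3 Nrp1 was called (adjusted p = 0.0186). The tertiles of Nrp2 differed in the side, with Nqo1 at 0.372 ± 0.228 in the highest and 15.4 ± 1.62 in the lowest. The part of the side in the difference of Nrp2 itself, and in the other differences, was not tested.

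**Figure D4:**
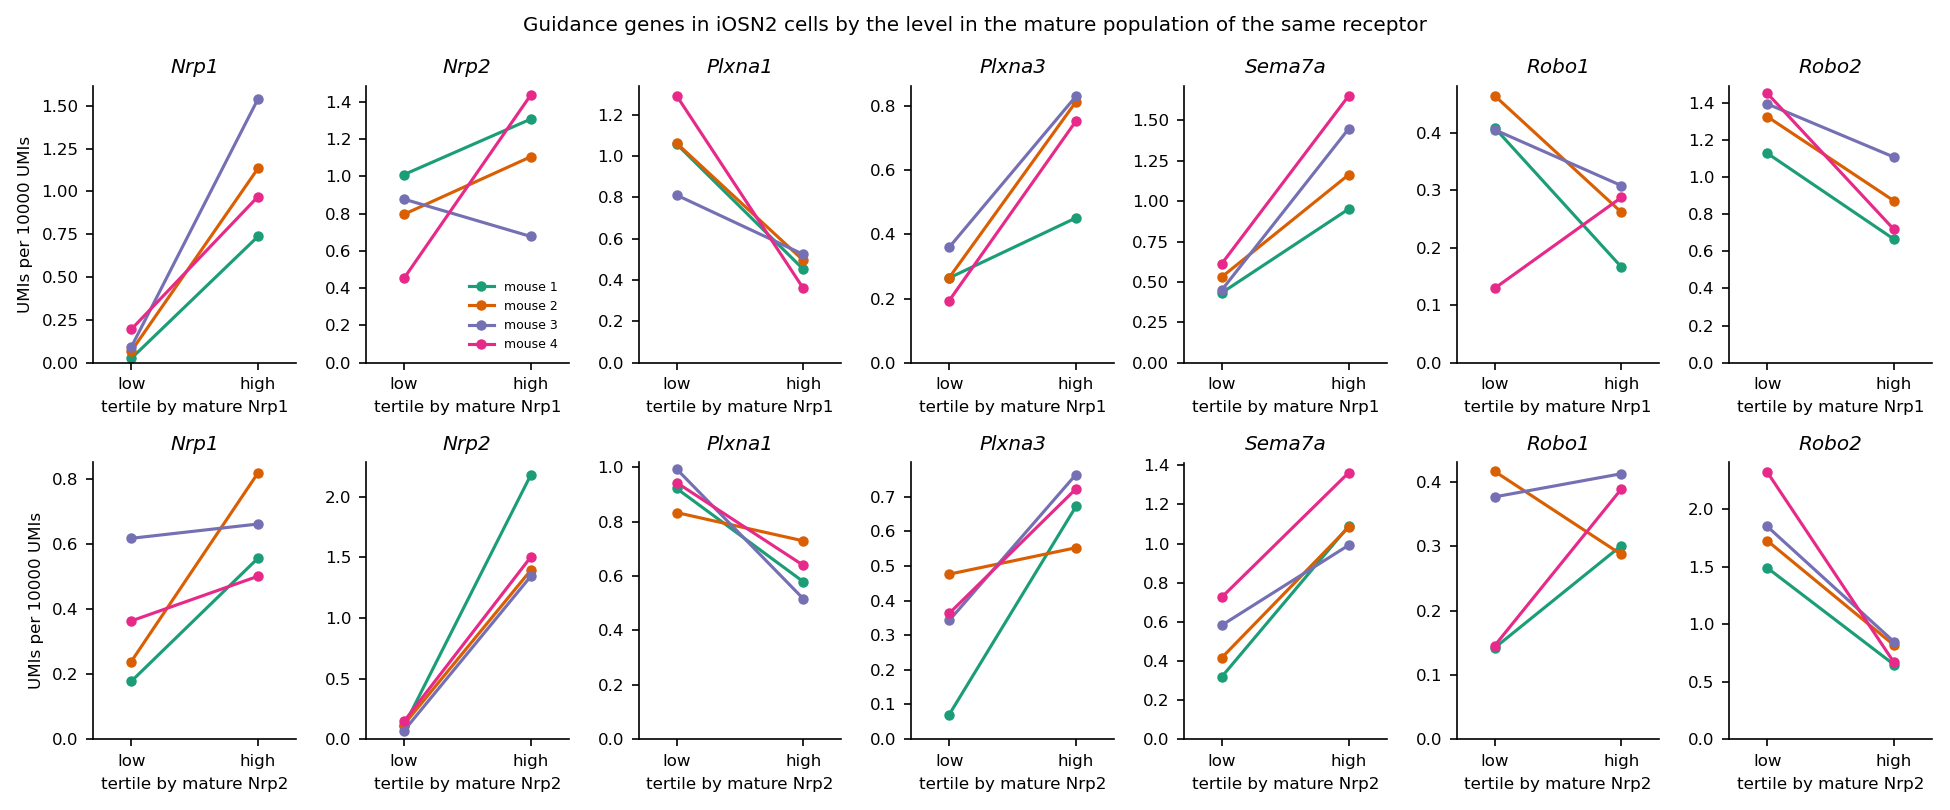
Levels of 7 guidance genes (UMIs per 10000 UMIs, linear axis from 0) in iOSN2 cells whose receptor lies in the lowest or highest tertile of mature Nrp1 (upper row) or mature Nrp2 (lower row), with 1 line per mouse. Nrp1 rises in 4 of 4 mice in the upper row from a mean of 0.0936 to 1.10 while Plxna1 falls, and Nrp2 rises in the lower row while Robo2 falls.

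**Figure D5:**
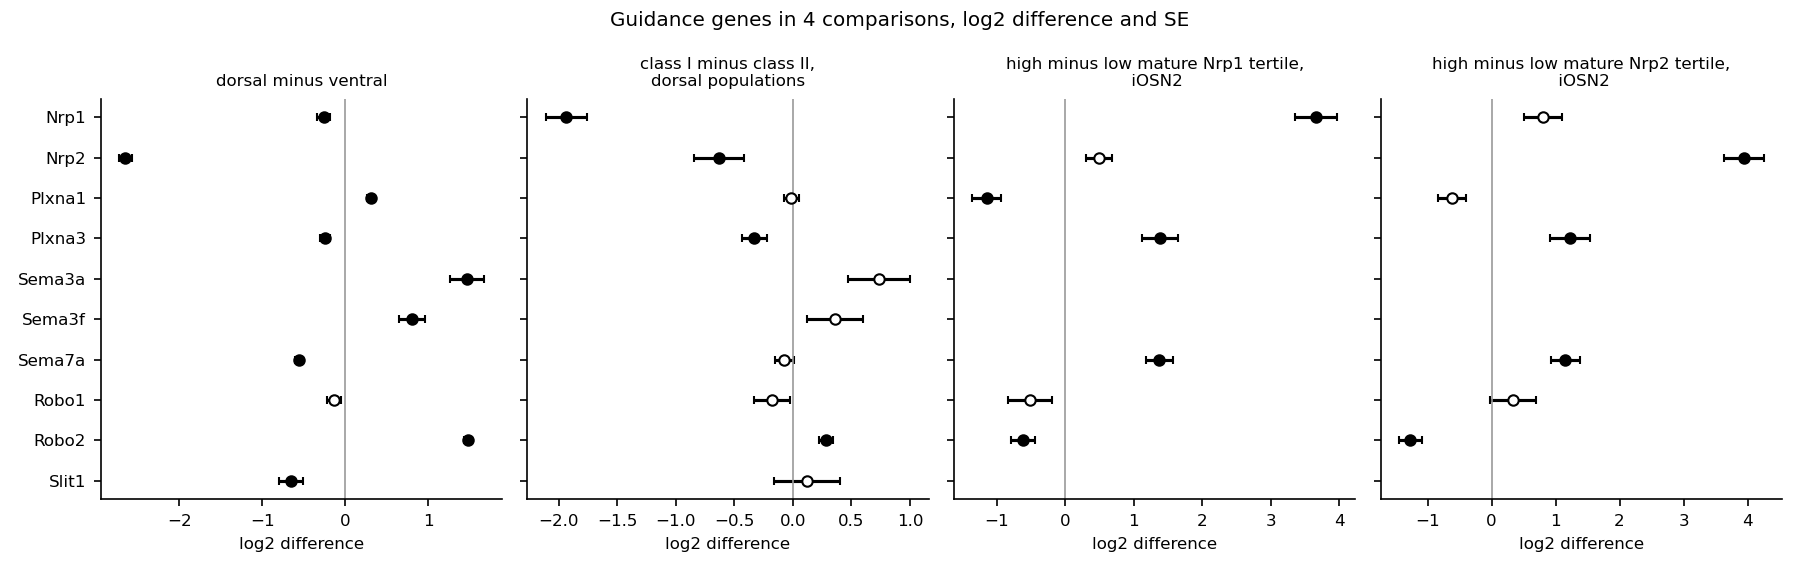
Log2 differences with SE of the guidance genes in 4 comparisons from edgeR fits on sums of 4 mice, filled where the adjusted p was under 0.05 and open where not. The axes differ between panels, and a gene without a point was not tested. Nrp2 is lower and Robo2 higher dorsally, Nrp1 is lower in class I, and Plxna1 opposes Nrp1 in immature neurons.

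The relatives and partners of these genes were described from lists of their families. Among 8 other semaphorins tested, 3 differed between the sides, where 29.0% of all genes did, with Sema3e (−0.71 ± 0.13 log2, SE) and Sema4b (−0.47 ± 0.16) lower dorsally and Sema4c (0.39 ± 0.10) higher and a median of −0.03 over the list and −0.00229 over all genes. Of 5 other plexins, 2 differed, against the same 29.0% (list median −0.10). Plxnb3 was lower dorsally (−4.41 ± 0.35, edgeR adjusted p = 4.28e-35), at 0.00328 ± 0.00314 against 0.0873 ± 0.00694, and Plxna4 higher (0.42 ± 0.04). Of 22 intracellular and co-receptor partners, 10 were higher and 3 lower dorsally (list median 0.16), where 13.8% and 15.1% of all genes were. They were led by Rnd2, a small GTPase of the Rnd group that plexins bind, at 1.13, 1.22, 1.35 and 1.19 dorsally against 0.391, 0.401, 0.437 and 0.432 ventrally (1.58 ± 0.06, adjusted p = 1.20e-166), and by Itgb1, a subunit of the integrin receptors of Sema7a (1.32 ± 0.09). Dpysl3 (−0.80 ± 0.16) and Nck2 (−0.63 ± 0.19) were the most lowered, and Crmp1 (0.51 ± 0.06) and Gipc1 (0.46 ± 0.08) were raised.

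Rnd2, higher dorsally, was also called in the other comparisons, in which the part of the side was not tested. It was higher in class I than in class II (0.79 ± 0.07), lower in iOSN2 cells of the highest Nrp1 tertile (−0.71 ± 0.12) and of the highest Nrp2 tertile (−0.90 ± 0.13) and in iOSN1 cells of both (−0.89 ± 0.21 and −1.32 ± 0.24), and it led the partners among populations (F = 5.83), ahead of Dpysl2 (3.68), Crmp1 (2.01), Itgb1, Srgap1 and Evl. Among populations 3 of 5 other semaphorins (Sema3e, Sema6a and Sema4g), 2 of 3 other plexins (Plxna4 and Plxnb2) and 6 of 16 partners passed, where 24.9% of all genes did, and the list medians of F were 1.59, 1.65 and 1.27 against 1.13 over all genes. The other members of the Slit and Robo families were too rare to be tested. Between the classes, 1 of 8 other semaphorins, 0 of 3 other plexins and 2 of 21 partners were called, where 7.36% of all genes were. They were Sema4g (−0.65 ± 0.20), Rnd2 and Srgap1, a partner of Robo (−0.27 ± 0.07). Between the Nrp1 tertiles in iOSN2, 0 of 4 semaphorins, 1 of 2 plexins and 2 of 16 partners were called, where 8.53% of all genes were, Plxna4 higher (0.69 ± 0.15) and Dpysl3 (−0.87 ± 0.17) and Rnd2 lower in the highest tertile. Between the Nrp2 tertiles, 0 of 4, 0 of 2 and 2 of 15 were, against 4.35%, with Gipc1 (−1.03 ± 0.29), which binds neuropilin, and Rnd2 lower. In the 4 lists of semaphorins and plexins with no edgeR call in these 3 comparisons, Sema4g between the Nrp2 tertiles was the 1 gene at an unadjusted p under 0.05, and DESeq2 called 0 of their genes. In iOSN1 cells, 2.34% of all genes were called between the Nrp1 tertiles and 3.49% between the Nrp2 tertiles. Sema6c was higher there in the highest tertile of Nrp1 (2.62 ± 0.43) and of Nrp2 (2.41 ± 0.52). It was 1 of 1 and 1 of 2 semaphorins tested out of 17 listed, so that these counts say little about the list. No plexin of 3 was called by edgeR (2 with Nrp1, Plxna4 and Plxnb2, and 1 with Nrp2, Plxnb2, at an unadjusted p under 0.05). Rnd2 was the 1 partner called of 15 and 16.

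Of 8 genes on the list called activity-linked axon-sorting genes, 5 differed between the Nrp1 tertiles in iOSN2, where 8.53% of all genes did. In the highest tertile 4 were higher and 1 lower (list median 0.60). S100a5 (1.44 ± 0.06), Kirrel2 (1.21 ± 0.08), Epha5 (1.18 ± 0.10) and Kirrel3 (0.72 ± 0.22) were higher and the ephrin gene Efna5 was lower (−1.10 ± 0.27). In iOSN1 cells 0 of 6 were called by edgeR between the Nrp1 tertiles (0 at an unadjusted p under 0.05, list median 0.07) and 1 of 6 (S100a5), lower in the highest tertile, between the Nrp2 tertiles, where 2.34% and 3.49% of all genes were. Between the sides, 4 of the 8 were higher dorsally and 4 lower, where 29.0% of all genes differed, with Kirrel3 (0.95 ± 0.07) and Kirrel2 (−0.76 ± 0.03) at the ends. With the Nrp2 tertiles in iOSN2, where 4.35% of all genes differed, 4 of 8 were higher, and 7 of 7 zone markers differed, with Acsm4 at −5.78 ± 0.22 and Cidea at 4.05 ± 0.27. Of the zone markers, 5 of 5 differed between the sides, which were themselves set by 2 other zone markers. Between the classes 6 of 7 did (against 7.36% of all genes), and between the Nrp1 tertiles in iOSN2 2 of 7 (against 8.53%). In iOSN1 cells, 3 of 7 were called between the Nrp1 tertiles (against 2.34%) and 7 of 7 between the Nrp2 tertiles (against 3.49%). The part of the zone in the iOSN1 differences of the members was not tested. The activity-linked list differed in 8 of 8 genes among populations (against 24.9%) and 6 of 8 between the classes (against 7.36%).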

How the data were processed

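Single-cell suspensions of olfactory epithelium from 4 mice were sequenced as 1 library per mouse. Per the submitters' processing notes and methods, the authors aligned reads and counted unique molecular identifiers (UMIs) per gene with Cell Ranger 6.0.1 against mouse build GRCm38, filtered cells and annotated clusters and receptors. The deposited count tables hold raw counts, and the deposited annotation was used as given, so doublets and free RNA not removed there can add UMIs. No doublet caller was run, and neurons with exactly 1 receptor detected served as an alternative. The 4 libraries held 23157467 to 32382702 UMIs, with medians of 4223 to 6939 per annotated cell, and pairs of libraries shared 4 to 14 barcodes.

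Counts were summed per mouse and cell group and given as UMIs per 10000 UMIs, mean ± SD over mice. Comparisons used edgeR 4.0.16 quasi-likelihood tests (R 4.3.3, TMM, low counts removed by filterByExpr or, among populations, by a mean under 0.5 UMIs per sum) with the mouse as a block, because sums of 1 mouse come from the same animal, and Benjamini-Hochberg adjustment over all genes tested at 0.05. Receptor genes were left out of these tests, and Nqo1 and Nfix of that between sides. DESeq2 1.42.0, no block, other filters, fewer mice and other sets of cells were alternatives, and the fits were tested on simulated counts. Those counts had the same dispersion for every gene and no difference between mice other than library size. They cannot show how the fits deal with the real spread between mice. Tests among neurons of shared populations compare sums from 4 mice of 1 group. The edgeR fit shares its estimate of spread over all genes tested. Its p-values thus do not rest on the spread of the 1 gene over the 4 mice alone.

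The members and the lists (other semaphorins, plexins, Slit and Robo genes, partners, zone markers and activity-linked axon-sorting genes) were chosen with earlier results of these data known. Named genes were all 10 members, up to 6 called genes of each list with the largest change, the 3 genes of highest and of lowest rho for each member tested among populations, the 3 highest and 3 lowest populations of each, and those of 9 widely studied receptors that had 20 or more neurons. Cell types were checked against fixed markers.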

Additional observations from a re-analysis of the deposited data

Results flagged for a closer look

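In 13 of 224 sets of values from the 4 mice with 20 or more UMIs, 1 mouse stood apart from the other 3 by Dixon's criterion (levels in UMIs per 10000 UMIs), which chance alone does in about 1 of 20 sets. In class I neurons of dorsal populations, Robo2 was at 2.06 in mouse 1 against 2.48 in the nearest, Plxna3 at 0.655 in mouse 2 against 0.476, and Nrp2 at 0.129 in mouse 4 against 0.110. In cell types, mouse 2 stood apart for Sema3a in GBC (0.373 against 0.141) and Sema3f in INP (0.218 against 0.0980), mouse 1 for Robo1 in iOSN2 (0.247 against 0.342), mouse 4 for Plxna3 in iOSN1 (0.160 against 0.192) and mouse 3 for Sema7a in Mv2 cells (0.192 against 0.0997). In clusters of mature neurons, mouse 2 was low for Sema3f in Dorsal neurons (0.0593 against 0.101) and mouse 4 high for Sema7a in Calb2+ D. neurons (0.803 against 0.536). In cells set aside by the annotation, Nrp2 in immune cells was at 0.294 in mouse 4 against 0.196, Plxna1 in immune cells at 0.231 in mouse 2 against 0.164, and Plxna1 in blood cells at 0.379 in mouse 1 against 0.0559.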

How the results depend on the processing

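Of the tests of single members, 305 of the repeats stayed on the same side of the threshold, 33 lost the call and 4 gained it. No direction turned where a member was called in the main fit or the repeat. Directions of members called in neither were not compared, and the test among populations has no direction. As reported, 1984 of 7956 genes were called among populations, 3472 of 11979 between the sides and 723 of 9829 between the classes. In iOSN2, 479 of 5613 were called between the Nrp1 tertiles and 224 of 5144 between the Nrp2 tertiles. DESeq2 and the fits without a block started from the same genes. With DESeq2, 1526 genes were called between the sides, 157 between the classes (1 member), 114 between the Nrp1 tertiles (2 members) and 54 between the Nrp2 tertiles (2 members). Without the mouse as a block, that is without the pairing of sums from the same animal, 1558, 196 (1 member), 306 and 170 genes were called, and among populations 1766. Leaving out 1 mouse at a time gave 1301 to 1492 genes among populations, 2871 to 2959 between the sides, 485 to 603 (2 to 3 members) between the classes, 351 to 412 between the Nrp1 tertiles and 119 to 222 between the Nrp2 tertiles. The lowest count among populations came without mouse 3 and that of the Nrp2 tertiles without mouse 1. With no filter on low counts, 2 members were called between the classes, against 4 of 10 in the main fit. The share of all genes called in that unfiltered fit is not given here. In iOSN1 cells, 100 of 4269 genes and 2 of 4 members were called with the Nrp1 tertiles. With no filter, added after seeing the data, 53 of 17292 genes and 2 members were called. With the Nrp2 tertiles and no filter, 88 of 17237 genes were called. The Spearman correlation between Nrp1 and Nrp2 was 0.0126 with populations of 10 or more neurons (353 populations) and 0.23 with 30 or more (52). It was 0.25 after thinning (94 populations) and 0.03 in neurons with exactly 1 receptor (66). The causes were not tested. The cell type with a member's highest mean was unchanged for 9 to 10 of 10 members without 1 mouse, the cluster for 9 to 10, and in neurons with exactly 1 receptor the cluster for 7. Sema3a, Sema3f and Slit1 were below the count minimum among populations and were not tested there.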
